A study of Arabidopsis thaliana with 24 samples.

Results

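The comparison set roots of a line built to switch on 2 transcription factor genes together against roots of the ISH1 line, both on estradiol. The question was which transcripts the roots of the first line, here called co-induced, carried over the ISH1 roots and which they lacked. It used 6 of the 24 one-colour arrays of the series, 3 of ATHB25/REM7-ind and 3 of ISH1. ATHB25/REM7-ind is the study's name for the line labelled ISH1&2, in which the cDNAs of ATHB25, a zinc-finger homeodomain protein, and REM7, a B3-domain protein, both stand behind promoters that an estradiol-activated transcription factor (XVE, driven by the 35S promoter) turns on. The labels name the other lines ISH1 and ISH2 without giving the gene each carries.

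Both groups were Arabidopsis thaliana of the Col-0 ecotype, grown under constant light on hygromycin for selection, moved to plates with 5 µM estradiol and harvested as roots at 15 days of age. All 4 lines of the series, control, ISH2, ISH1 and ATHB25/REM7-ind, were also grown without estradiol. The labels do not say whether replicates came from separate plates or plants, so the p-values measure the spread between these samples, which may be technical. The labels also do not say how many independent transformants stand behind a line, or how many plants were pooled.

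As background, a root normally keeps shoot programmes silent. Shoot meristems depend on WUSCHEL and on homeodomain proteins of the KNOX class, boundaries between organs on CUC and LOB proteins, and green tissue on the photosystems, the Calvin cycle and a cuticle of cutin and wax. The root instead seals its endodermis with suberin and lines its surface with transporters for nitrate, ammonium, potassium and iron. Plants answer microbes through a salicylic acid pathway and through a jasmonate and ethylene pathway, which often restrain each other.

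All levels below are log2 signals minus the 75th percentile of their array, so that 0 is that percentile and a difference of 1 is a 2-fold difference. Differences are ATHB25/REM7-ind minus ISH1, with the standard error (SE) of the limma fit and a p-value adjusted by Benjamini-Hochberg over all 27814 genes tested. That fit took 1 spread per gene from all 8 groups of the series, so an SE can reflect groups outside the comparison. A gene was called at an adjusted p below 0.05. Values in 3 arrays are given in the order of replicates 1, 2 and 3. In bulk RNA of a whole root, fewer cells of a type and less RNA per cell cannot be told apart.

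The induced genes were read first. ATHB25 stood at 4.14, 4.23 and 4.36 in ATHB25/REM7-ind and at 5.31, 5.16 and 5.23 in ISH1, both far above its mean of -8.01 in control roots with estradiol. The groups did not overlap, and ATHB25 was lower in the co-induced line (difference -0.99, SE 0.36, adjusted p = 0.0249). That call was lost in 7 of the 9 fits that left out 1 array or 1 slide, with adjusted p up to 0.117. Control roots with estradiol, which share in that SE, ranged from -7.32 to -8.92, more widely than either line on estradiol. Without estradiol ATHB25 lay at -1.18, -0.14 and -0.61 in ATHB25/REM7-ind and at -4.19, -4.60 and -4.58 in ISH1, so it was already above the control roots in both lines.

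REM7 stood at 4.70, 4.71 and 4.58 in ATHB25/REM7-ind and at 2.59, 0.80 and -0.19 in ISH1 (difference 3.60, SE 0.41, adjusted p = 4.44e-07). The ISH1 arrays thus differed widely among themselves, replicate 1 highest, and all 3 lay above the control roots with estradiol, at -1.14, -1.64 and -1.62. REM7 was highest in ISH2 roots with estradiol, at 6.37, 6.02 and 6.02, above ATHB25/REM7-ind. A second REM7 probe had the same order in ISH1, at 1.28, -0.67 and -1.67 against 3.46, 3.44 and 3.28 in the co-induced line. Without estradiol REM7 was at -1.67, -1.6 and -1.56 in ISH1 but at 4.52, 4.53 and 4.64 in ATHB25/REM7-ind, overlapping its values with estradiol. Co-induced is therefore only a name for that line on estradiol. Between its treatments ATHB25 rose, while REM7 was already high without estradiol. Signal from a transgene and from the plant's own copy cannot be told apart on the array. Whether ISH1 plants or RNA held material of another line, which would touch every ISH1 value, was not tested. Without ISH1 replicate 1 the REM7 difference was 4.36. Gene list counts without that array are given where they move by over 1.5 times or where the median changes sign. Background correction by normexp, named below for single genes, also replaced the processed signal by the median signal and added an offset of 50.

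**Figure D1:**
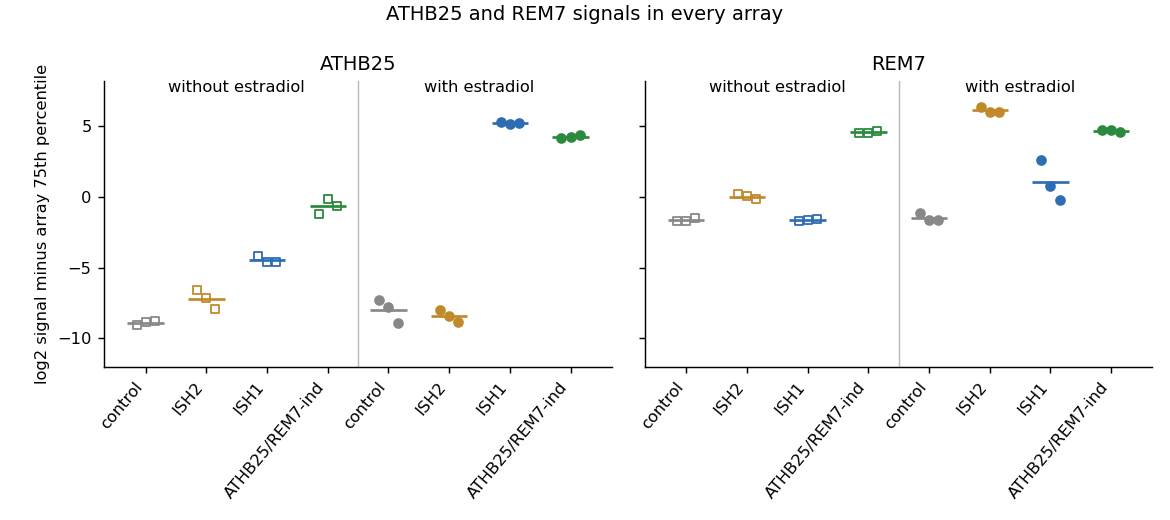
Log2 signal minus the array's 75th percentile of ATHB25 (left) and REM7 (right) in all 24 arrays, by line, without (open squares) and with estradiol (filled circles); bars are group means. ATHB25 is high in ISH1 and ATHB25/REM7-ind with estradiol. REM7 is high in ATHB25/REM7-ind with and without it and highest in ISH2 with it. The 3 ISH1 arrays with estradiol spread between 2.59 and -0.19 for REM7.

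The 2 kinds of root differed across a large share of the transcriptome. Of 27814 genes tested, 7794 (28%) were higher in ATHB25/REM7-ind and 8424 (30.3%) lower, and at a fold of at least 2 the called genes were 1938 (6.97%) higher and 2704 (9.72%) lower. The median difference over all genes was -0.006. The shares of 28% and 30.3% are the background for the count of each gene list below. In 66.4% of all genes tested the values of the 2 lines did not overlap, so a lack of overlap in a single gene was common. With the 10-fold threshold named in the methods and no test, 175 genes were higher and 315 lower over any of their probes, dim ones included, and 117 and 189 where the probe was well above background on all 6 arrays. Arrays of ISH1 correlated with each other at r = 0.995 to 0.997 over the genes tested, and arrays of the 2 lines with each other at 0.944 to 0.96. ATHB25/REM7-ind replicate 1 correlated with replicates 2 and 3 at 0.984 to 0.986, less than those did with each other (0.997).

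Among the genes called at least 2-fold, replicate 1 of each line often held the value of its line nearest to the other line. Over all genes tested this did not hold for ATHB25/REM7-ind. Its replicate 1 correlated with the ISH1 arrays at 0.951, 0.948 and 0.944, lower for each of them than its replicates 2 and 3 did. ISH1 replicate 1 had the highest correlation of the ISH1 arrays with each co-induced array. Among the genes called at least 2-fold lower, ATHB25/REM7-ind replicate 1 had the highest of the 3 co-induced values in 60.7% of 2700 genes with complete values, and ISH1 replicate 1 had the lowest of the ISH1 values in 60.6%, where over all genes tested replicate 1 of ATHB25/REM7-ind was the highest in 33.8%. Among those at least 2-fold higher, ISH1 replicate 1 held the highest ISH1 value in 60.5% of 1934, against 42.8% over all genes tested, and ATHB25/REM7-ind replicate 1 held the lowest co-induced value in 45.3%. Shares of the lowest value over all genes tested were not taken, so 60.6% and 45.3% have no background to be read against. Each slide carried all 4 lines of 1 treatment and 1 replicate number, and a line kept its place among the 4 arrays of every slide, so within a treatment an effect of that place cannot be told apart from one of the line. Without ISH1 replicate 1 the calls were 7600 higher and 8052 lower, and without ATHB25/REM7-ind replicate 1 they were 7371 and 8091.

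**Figure D2:**
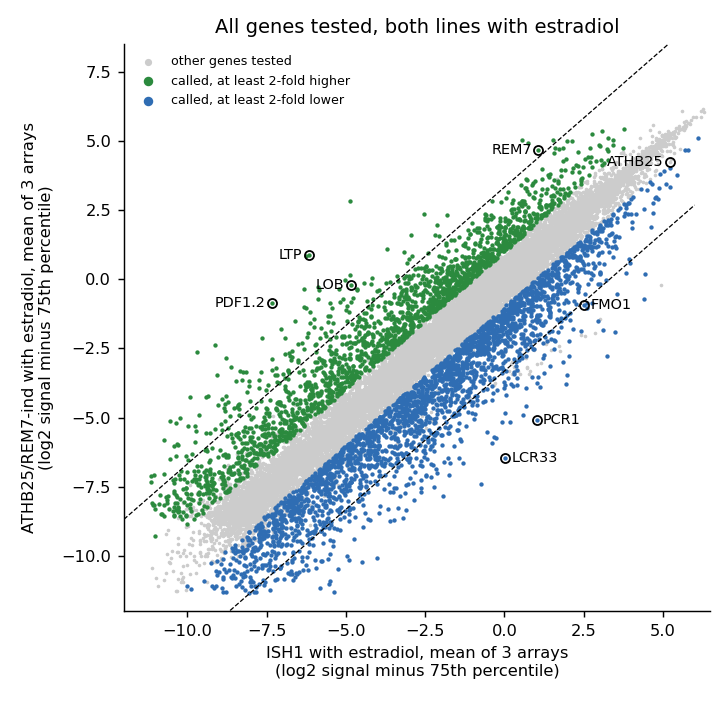
Mean log2 signal minus 75th percentile of each gene tested in ISH1 (x axis) and ATHB25/REM7-ind (y axis), both with estradiol, 3 arrays each; green and blue points are genes called at a fold of at least 2, and dashed lines mark a 10-fold difference. PDF1.2 and LTP lie far above the upper line, PCR1 and LCR33 far below the lower one.

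Every listed photosystem gene was higher in the co-induced roots, in a list written with earlier results of these data known. All 27 photosystem genes tested, subunits and antenna proteins of both photosystems, were called higher, with differences from 1.43 to 3.01 and a median of 2.12. All were also above background in every ISH1 array. LHCA1, an antenna protein of photosystem I, was at 4.50, 4.53 and 4.67 in ATHB25/REM7-ind and 1.74, 1.6 and 1.34 in ISH1, an 8.05-fold difference (log2 3.01, SE 0.13, adjusted p = 1.35e-12). LHCB3, of the photosystem II antenna, was at 3.57, 3.60 and 3.61 against 0.89, 0.82 and 0.42. The photosystem I subunits PSAL and PSAH2 differed by 2.88 and 2.78. PSBR was the least changed, at 1.43.

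The enzymes that fix carbon moved with them. All 14 tested were called higher, from 1.01 for the phosphoglycerate kinase PGK1 to 3.04 for HCEF1, the chloroplast fructose bisphosphatase, with a median of 2.48. HCEF1 read 1.39, 1.44 and 1.47 in the co-induced roots and -1.31, -1.62 and -1.87 in ISH1 (adjusted p = 2.44e-11). The Rubisco small subunit RBCS2B was at 4.75, 4.66 and 4.69 in ATHB25/REM7-ind, against 1.85, 1.75 and 1.55 in ISH1, and its near-identical copy RBCS3B, whose probe may share signal with it, differed by 2.86. The 2 groups lay wide apart in all 3 genes. The aldolase FBA1 was 5.91-fold higher and the phosphoribulokinase PRK differed by 2.50.

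Chlorophyll synthesis and its regulators followed in 16 of 17 genes. GUN4, which activates magnesium chelatase, was at 0.23, 0.33 and 0.40 in the co-induced line and -2.15, -2.23 and -2.47 in ISH1 (difference 2.60, SE 0.15, adjusted p = 4.27e-11). GUN5, the large subunit of that enzyme, and CRD1, a cyclase later in the pathway, differed by 2.01 and 2.05. The GATA factor GNC and the GLK factors GLK1 and GLK2, which switch on nuclear photosynthesis genes, differed by 2.39, 1.36 and 1.81. Under normexp GNC was not called (0.89, adjusted p = 0.179), and 13 genes of the list were higher. PORA, the protochlorophyllide reductase of dark-grown seedlings, ran the other way, with a difference of -1.79 and 2 of 3 co-induced arrays above background, while its relative PORC was higher by 1.95.

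Set beside the other roots on estradiol, ATHB25/REM7-ind had the highest levels of green genes. The mean level of the photosystem list was 3.12 to 3.16 in its 3 arrays, 0.76 to 1.1 in ISH1, 1.09 to 1.35 in control roots and -0.66 to -0.44 in ISH2. ISH1 and control overlapped, and ISH2 was the lowest. The carbon fixation list ranged over 2.63 to 2.68, 0.12 to 0.48, 0.22 to 0.86 and -2.08 to -1.51 in the same order. Without estradiol the photosystem list ranged over 1.23 to 1.52 in ATHB25/REM7-ind and 1.22 to 1.33 in ISH1, and none of its genes was called between the lines.

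**Figure D3:**
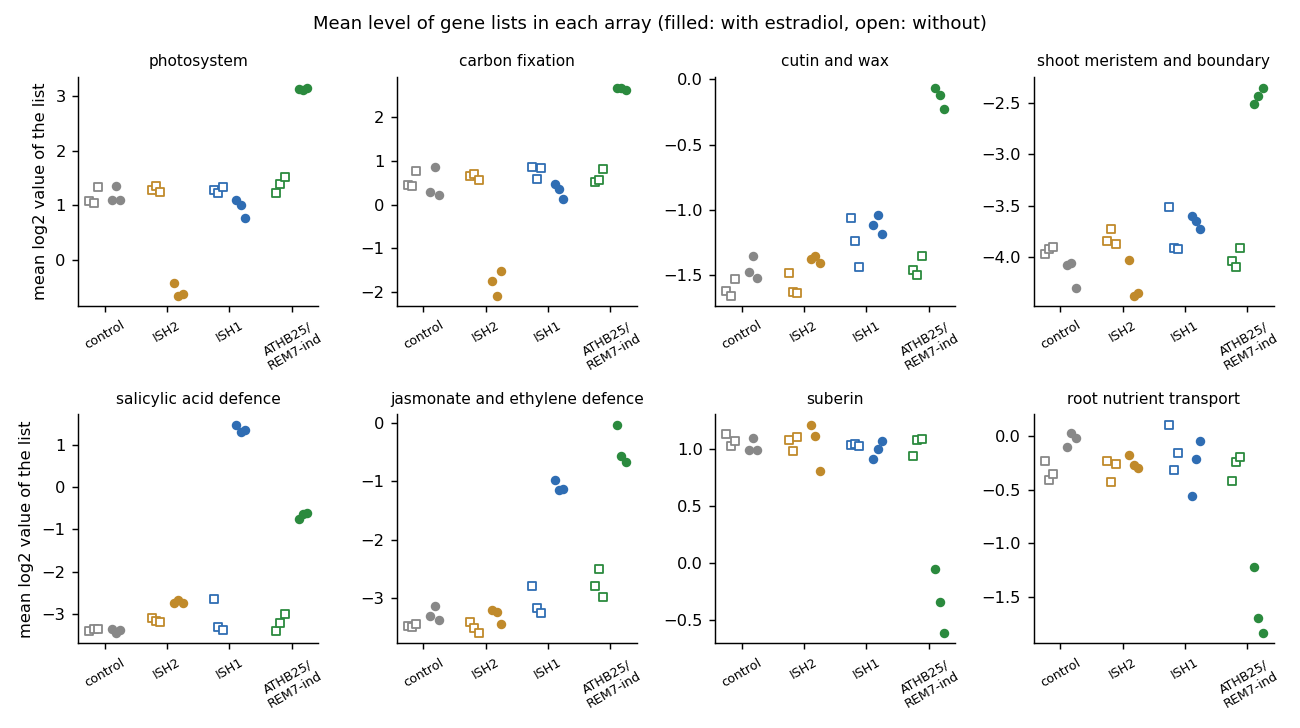
Mean log2 value of 8 gene lists in each array, by line, with estradiol (filled circles) and without (open squares); each point is 1 array. In the photosystem panel the co-induced arrays lie between 3.12 and 3.16 and every other array at 1.52 or lower, and in the suberin panel the 3 co-induced arrays with estradiol lie below all others.

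Genes of shoot meristems and organ boundaries were raised in ATHB25/REM7-ind. Of 18 tested, 13 were called higher, 1 lower and 4 were not called, with a median of 0.94. LOB, which marks the boundary at the base of lateral organs, was highest, at -0.59, -0.066 and 0.039 against -4.75, -4.77 and -5.02 in ISH1, a 24.9-fold difference (log2 4.64, SE 0.14, adjusted p = 2.81e-14). The control and ISH2 roots with estradiol had means of -5.51 and -5.21, near those of ISH1.

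The NAC-domain boundary genes did not move as a block. CUC1 was at -2.27, -2.32 and -2.14 in the co-induced roots and -4.62, -4.66 and -4.56 in ISH1 (difference 2.37, adjusted p = 1.59e-13), and CUC3 at -2.68, -2.66 and -2.29 against -5.40, -5.35 and -5.85 (difference 2.99, adjusted p = 4.14e-12). For both genes the ranges of the 2 lines lay well apart. CUC2 overlapped between the lines, at -6.01, -6.06 and -5.78 and -5.90, -5.98 and -6.31, with a difference of 0.12 (SE 0.19, adjusted p = 0.629). BOP1, a co-activator of the leaf base, was higher by 2.44, and its paralog BOP2 by 0.72. LAS, a GRAS protein of axillary meristems, was slightly lower (difference -0.36, adjusted p = 0.0117), a call lost without ISH1 replicate 3 (adjusted p = 0.0638), without ATHB25/REM7-ind replicate 3 (0.096) and without both (0.304). It was lost as well in a fit to the 6 arrays alone (0.0775, or 0.149 with the replicate block), under quantile normalization (0.0965) and under normexp (0.0627).

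WUS, which maintains stem cells from the organizing centre of the shoot meristem, was at -3.76, -3.19 and -3.16 in ATHB25/REM7-ind and -5.78, -5.50 and -5.79 in ISH1 (difference 2.32, SE 0.76, adjusted p = 0.0143). The groups did not overlap, and ISH1 itself stood above the control mean of -10.07, where WUS was well above background in no array. With the arrays of both lines of replicate 2 or of replicate 3 left out, the adjusted p was 0.0614 and 0.0845, and under normexp the difference was 1.05 (adjusted p = 0.212). The change of the WUS difference with estradiol was not called either (2.23, adjusted p = 0.102). STM, the KNOX protein of the meristem, was low in both lines, at -6.39, -6.34 and -5.59 and -8.24, -8.18 and -8.19 (difference 2.1, SE 0.39, adjusted p = 0.000161), and had a difference of -0.17 (adjusted p = 0.852) when the background was corrected by normexp. The related KNAT2, KNAT6 and BP were higher by 1.29, 0.80 and 0.87, and BLR, a BELL-class partner of KNOX proteins, by 1.01. CLV3, the peptide made by the stem cells, was above background in 1 co-induced array and was not called (difference -0.79).

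The embryo MADS-box factor AGL15 was at -2.16, -1.82 and -1.71 against -2.79, -3.07 and -3.12 in ISH1 (difference 1.1, adjusted p = 2.22e-07). The chromatin repressors FIE, of Polycomb, and PKL, a remodeller, differed by 0.015 (SE 0.065) and 0.13 (SE 0.072) and were not called, although PKL was called with the slide as a replicate block (adjusted p = 0.0435). KRP3, an inhibitor of cyclin-dependent kinases, was lower (difference -0.43, adjusted p = 6.59e-06).

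Among the 11 leaf polarity genes tested only 4 were called, all higher, where 28% of all genes tested were called higher. AS2, which acts on the upper leaf side, was at -3.82, -3.95 and -3.73 against -5.90, -6.23 and -6.48 (difference 2.37, adjusted p = 6.51e-11). YAB5, of the lower side, was at -5.41, -5.39 and -5.37 against -7.46, -7.44 and -6.79, with a difference of 1.84 that turned to -0.019 under normexp. AS1 and REV differed by 0.33 and 0.18. Under normexp AS2 (0.93, adjusted p = 0.184) and AS1 (adjusted p = 0.0521) were not called, leaving 1 gene of the list, with a median of -0.036. REV was not called in a fit to the 6 arrays alone (adjusted p = 0.0603, or 0.0878 with the replicate block). KAN2, also of the lower side, was at -10.89, -2.02 and -1.89 against -2.47, -2.64 and -2.68. Its difference of -2.34 came from co-induced replicate 1 alone and was not called.

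Floral regulators split in both directions, with 7 of 16 called higher, 5 lower and 4 not called, and a median of 0.26. Under normexp 1 was higher and 3 lower, with a median of -0.44, and without ATHB25/REM7-ind replicate 2 there were 5 and 3. SEP3, which builds the complexes that specify floral organs, was at -1.96, -1.62 and -1.68 in the co-induced roots and -5.42, -5.90 and -6.04 in ISH1 (difference 4.03, SE 0.64, adjusted p = 2.53e-05). AP1, SEP4 and AP3 were higher by 1.86, 1.52 and 1.18, of which AP1 was not called under normexp (0.22, adjusted p = 0.75). In the opposite direction FUL, a MADS-box gene of stems, leaves and fruit, was at -5.14, -4.79 and -4.83 against -1.62, -1.64 and -1.35 (difference -3.38, adjusted p = 1.01e-13). ISH1 was the group that stood apart there, since control and ISH2 roots had FUL means of -5.30 and -5.01. The floral identity gene LFY was below background in all co-induced arrays and at least 2.4-fold lower, and SOC1 had a difference of -0.97. The flowering repressor FLC was lower too (difference -1.54), but its call was lost when any of the 3 ISH1 arrays or replicate 2 or 3 of ATHB25/REM7-ind was left out (adjusted p from 0.0512 to 0.0975).

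Seed genes were mostly dim and mostly not called. Of 17 tested, 5 were higher, against 28% of all genes tested, 1 lower, against 30.3%, and 11 not called. Only 9 were above background on all 6 arrays. Leaving out ATHB25/REM7-ind replicate 3 left 2 higher, and leaving out its replicate 2 or ISH1 replicate 2 or 3 left 3. Under normexp 1 was higher, with a median of -0.76. Without estradiol 8 of the 17 were higher in ATHB25/REM7-ind, and the list median was 1.65, against 0.20 with it. The oleosin OLEO4, a coat protein of oil bodies, was at -4.57, -4.80 and -4.13 in ATHB25/REM7-ind and -8.62, -9.07 and -8.69 in ISH1, where 1 of 3 arrays was above background, and was not called under normexp (1.07, adjusted p = 0.243). The seed storage albumin SESA4 was at -3.02, -2.69 and -2.36 against -4.43, -4.60 and -5.54 (difference 2.17). OLEO2 differed by 2.31 (adjusted p = 0.0499), but its groups overlapped, and the call was lost in 5 of the 6 fits without 1 array (adjusted p up to 0.238). Both oleosins and SESA4 were also higher in ATHB25/REM7-ind without estradiol, by 1.65, 3.72 and 1.85. EM6, a late embryogenesis protein, was lower with estradiol (-1.54) and higher without it (1.77).

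The cuticle list held genes on both sides. Of 19 genes tested, 12 were called higher and 7 lower, with a median of 1.09. CER2, needed to elongate wax precursors, was at -0.18, -0.045 and -0.16 against -4.48, -4.37 and -4.39 in ISH1, a 19.5-fold difference (log2 4.28, SE 0.25, adjusted p = 4.41e-11). CER6, the condensing enzyme of wax elongation, was at 1.69, 1.62 and 1.43 against -2.25, -2.12 and -2.17, and CER1, which makes alkanes, at 3.64, 3.69 and 3.53 against 0.47, 0.94 and 0.65. All 3 wax genes were separated by more than the whole range of either group.

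The lipid transfer protein LTP1 was higher by 3.13, the exporters ABCG11 and CER5 by 2.89 and 2.13, and CYP77A6, which hydroxylates cutin monomers and was below background in ISH1, at least 2.88-fold. Lower in ATHB25/REM7-ind, by their log2 differences, were CYP86A4 (-2.04), GPAT6 (-1.50), LACS2 (-0.94) and GPAT4 (-0.47), which act in cutin monomer synthesis, and the epidermal protein PDF1 (-2.04). CER1 had means of -0.99 and -0.44 in control and ISH2 roots, so that ISH1 was intermediate.

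**Figure D4:**
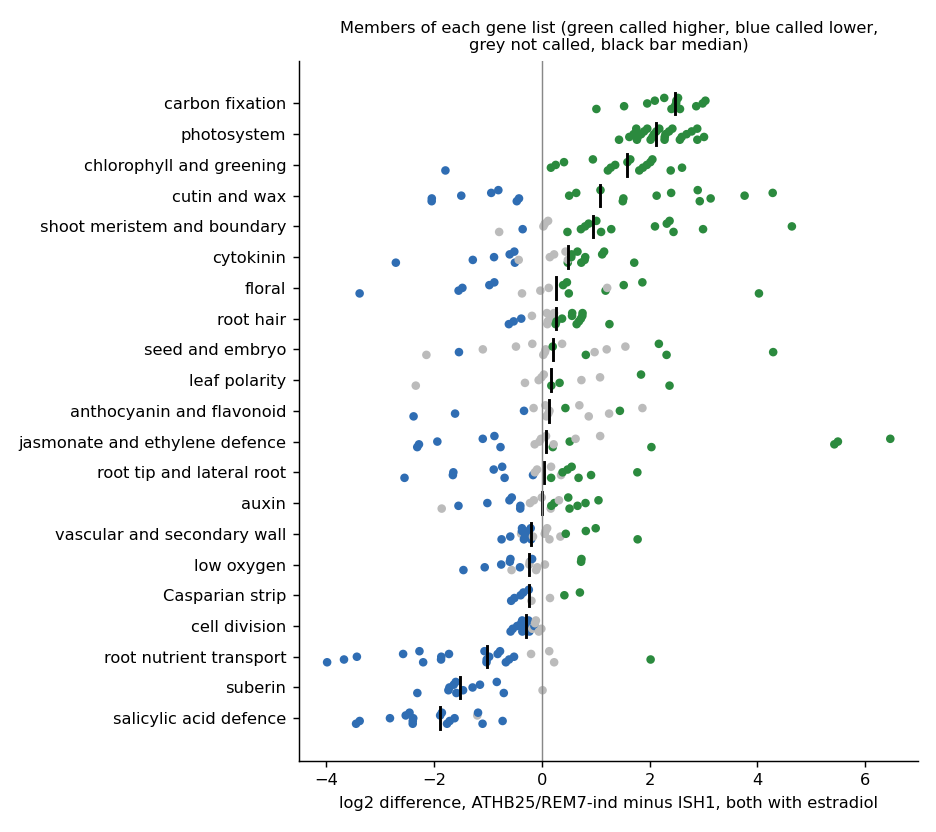
Log2 difference, ATHB25/REM7-ind minus ISH1, both with estradiol, of each tested member of 21 gene lists (points), ordered by list median (black bar). Carbon fixation and photosystem genes lie wholly to the right of 0, salicylic acid defence genes wholly to the left, and lists such as cutin and wax or floral hold genes on both sides.

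Over all genes, the 10 with the largest differences were taken in each direction among those called, well above background on all 6 arrays and with groups apart. The locus AT2G27385, unnamed in the annotation used here, led at 2.84, 2.92 and 2.77 against -4.58, -4.23 and -5.79, a 210-fold difference (log2 7.71, SE 0.46). The lipid transfer protein gene LTP (AT2G15050) was at 0.93, 0.80 and 0.85 against -5.96, -5.71 and -6.84. KCS19, a ketoacyl-CoA synthase, was at -1.47, -1.98 and -1.91 against -7.06, -6.17 and -7.93, and AT4G38840, also named SAUR14, at -0.71, -0.66 and -0.80 against -5.69, -5.66 and -6.31. AT5G63180, AT5G35480, AT5G41761, AT3G20395 and AT4G17245 were higher by 5.21 to 5.96.

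Some genes were well above background in all 3 co-induced arrays and in no ISH1 array, which held for 184 of the genes tested. Their folds are lower bounds, taken against the lowest signal well above background or the gene's own value where that was higher. TGG1, a myrosinase of guard cells and phloem cells, was at -2.21, -3.27 and -1.69 and was at least 83.5-fold higher. GER3, a germin-like protein, was at -2.39, -2.72 and -2.83 (at least 71.2-fold), and MYB111, an activator of flavonol synthesis, at -4.26, -4.27 and -4.15 (at least 24.7-fold). AT2G32880, AT1G29090 and AT1G33811 had bounds of 23.1, 19.8 and 15.3. These bounds rest on the processed signal. Under normexp MYB111, AT2G32880, AT1G29090 and AT1G33811 had log2 differences of 1.17, 1.07, 0.92 and 0.72 and were not called (adjusted p from 0.209 to 0.433).

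Turning to what the ISH1 roots carried over the co-induced roots, the salicylic acid pathway was lower in the co-induced roots almost throughout. Of 17 genes, 16 were called lower in ATHB25/REM7-ind, 15 of them at least 2-fold, and the median was -1.89. FMO1, which makes the immune signal N-hydroxypipecolic acid, was at -0.66, -0.82 and -1.30 in ATHB25/REM7-ind and 2.60, 2.48 and 2.48 in ISH1, a 10.9-fold difference (log2 -3.45, SE 0.12, adjusted p = 1.56e-13). PBS3, an enzyme of salicylic acid synthesis, was at 0.52, 0.81 and 0.41 against 4.00, 3.89 and 3.98, and NIMIN1, which binds the receptor NPR1, at -3.57, -3.60 and -3.07 against -0.47, -0.68 and -0.64. Neither gene's groups overlapped.

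Upstream members went the same way. ICS1, the isochorismate synthase that starts the pathway, was lower, with log2 differences of -1.76, EDS5, which exports its product from plastids, by -1.71, and the activators SARD1 and CBP60G by -2.39 and -1.85. The lipase-like immune regulators PAD4, EDS1 and SAG101 had values of -1.62, -1.18 and -1.1. Of the outputs, the glucanase BGL2 was at -3.67, -2.99 and -2.13 against -0.072, -0.66 and -0.47 (difference -2.53, adjusted p = 0.0162, but 0.0657 without ATHB25/REM7-ind replicate 1). PR1 had a difference of -1.20 and was the member not called.

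Both lines nevertheless stood above the other roots in this list. Its mean level was -0.75 to -0.61 in ATHB25/REM7-ind and 1.31 to 1.48 in ISH1 with estradiol, against -3.46 to -3.37 in control roots and -2.75 to -2.67 in ISH2. Without estradiol both lines lay between -3.42 and -2.64. PBS3 had means of -7.68 and -6.28 in control and ISH2 roots, so the co-induced roots held an intermediate level.

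The jasmonate and ethylene list had no common direction, with 6 of 19 genes called higher, 6 lower and 7 not called, and a median of 0.078. These counts stand beside 28% higher and 30.3% lower over all genes tested. The defensin PDF1.2 was at 0.67, -1.45 and -1.82 in ATHB25/REM7-ind and -6.99, -8.18 and -6.82 in ISH1 (difference 6.46, SE 0.51, adjusted p = 2.93e-09), and its close copy PDF1.2b at -0.61, -2.63 and -3.17 against -6.85, -8.34 and -7.70, where 2 of 3 ISH1 arrays were above background. Their probes may share signal. In both, co-induced replicate 1 was the highest. The thionin THI2.1, below background in all ISH1 arrays, was higher by at least 13.4-fold in the co-induced roots, but under normexp its log2 difference was 0.74 and was not called (adjusted p = 0.434).

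Other members of the list ran in reverse. The basic chitinase HCHIB was at 1.41, 1.02 and 0.56 in the co-induced roots and 3.15, 3.31 and 3.46 in ISH1 (difference -2.31, adjusted p = 3.06e-10), and PDF1.1 and PR4, a hevein-like protein, were lower, with log2 differences of -2.28 and -1.94. ORA59 and ERF1, the transcription factors that activate PDF1.2, were lower, with log2 differences of -1.1 and -0.88. AOC1, an enzyme of jasmonate synthesis, was higher by 2.03, and VSP1 and VSP2, markers of the wound branch, had differences of -0.045 and -0.015 and were not called. Both lines stood above the other roots on estradiol in this list too. Its mean level was -0.673 to -0.032 in ATHB25/REM7-ind and -1.143 to -0.986 in ISH1. Control roots were at -3.386 to -3.135 and ISH2 roots at -3.451 to -3.205.

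Suberin genes were lower in ATHB25/REM7-ind in 11 of 12 tested, 9 of them at least 2-fold, with a median of -1.52. CYP86A1, the hydroxylase of suberin fatty acids, was at 1.65, 1.15 and 0.83 against 2.86, 2.92 and 3.04 in ISH1 (difference -1.73, SE 0.14, adjusted p = 4.05e-09). The acyltransferase GPAT5 was at -0.54, -0.81 and -1.15 against 0.71, 0.83 and 0.86, and GPAT7 at -3.08, -3.75 and -3.97 against -1.45, -1.29 and -1.12. Co-induced replicate 1 was nearest to ISH1 in all 3 genes.

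The exporters ABCG6, ABCG20 and ABCG2 were lower, with log2 differences of -1.72, -1.6 and -1.15, the activator MYB41 by -1.46, and KCS20 was not called (0.013). The list mean in the 3 co-induced arrays was -0.057, -0.34 and -0.62, against 0.91 to 1.07 in ISH1, 0.99 to 1.09 in control and 0.81 to 1.21 in ISH2. Only the ATHB25/REM7-ind range lay apart from the other 3. CDEF1, a cutin-degrading esterase first known as cuticle destructing factor, was among those 10 genes toward ISH1, at -2.94, -3.91 and -4.54 against 1.74, 2.01 and 2.05, and its control and ISH2 means were 0.65 and 0.45.

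Casparian strip genes, which act in the same cell layer, changed little. Of 9 tested, 2 were higher, 5 lower and 2 not called, with differences from -0.57 to 0.71. With both arrays of replicate 3 left out, or in the 6 arrays alone with the replicate block, 2 were lower. The scaffold proteins CASP1 and CASP2 were lower, with log2 differences of -0.39 and -0.57, CASP4 and CASP5 higher by 0.42 and 0.71, and SGN3, the receptor kinase that surveys the barrier (GSO1 in the annotation), lower, with a log2 difference of -0.51.

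Nutrient transporters of the root were lower in 18 of 22 genes, 12 of them at least 2-fold, with a median of -1.02. HAK5, the high-affinity potassium transporter, was at -2.44, -2.81 and -2.96 in ATHB25/REM7-ind and 0.91, 1.32 and 1.52 in ISH1, a 15.8-fold difference (log2 -3.98, SE 0.21, adjusted p = 1.48e-11). The nitrate transporter NRT2.1 was at -2.60, -3.90 and -3.36 against -0.12, 0.50 and 0.78 and the iron transporter IRT1 at -1.42, -2.81 and -4.36 against 0.13, 0.62 and 0.96. IRT1 varied most among the co-induced arrays, replicate 1 lying nearest to ISH1.

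WR3, the partner protein of NRT2.1, was lower, with log2 differences of -1.87, the ammonium transporters AMT1;5, AMT1;3, AMT1;2, AMT2 and AMT1;1 by -2.57, -2.20, -1.03, -1.02 and -0.78, and the iron reductase FRO2 and its regulator FIT by -2.27 and -1.06. HKT1, which withdraws sodium from the xylem, was the only member called higher (2.02), a call lost under normexp and in a fit to the 6 arrays alone with the replicate block, where no member of the list was called higher. HAK5 means in control and ISH2 roots were 1.96 and 1.47, above the ISH1 mean.

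The 18 genes of root tip and lateral root had a median of 0.041, with 7 called higher, 7 lower and 4 not called, or 4 and 7 with a median of -0.15 under normexp. In the main fit 28% of all genes tested were higher and 30.3% lower. LBD29, a target of auxin response factors in lateral root founder cells, was at -6.41, -6.87 and -7.15 in ATHB25/REM7-ind and -4.31, -4.19 and -4.29 in ISH1 (difference -2.55, SE 0.14, adjusted p = 3.23e-11). LBD33, PUCHI, GATA23 and LBD18, which act at early steps of lateral root formation, were lower, with log2 differences of -1.65, -1.64, -0.89 and -0.74, and LBD16 was not called (-0.13). WOX5, which marks the quiescent centre of the root tip, was at -2.17, -1.76 and -1.75 against -3.20, -3.70 and -4.08 (difference 1.77, adjusted p = 7.93e-07). SCR and PLT1, which pattern the tip, were higher by 0.68 and 0.55 (PLT1 not called under normexp, adjusted p = 0.194), and BRN2 of the root cap by 0.91.

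The label root was checked on 11 marker genes of root cell types, among them SCR, SHR, WER, PHT1;1, CASP1 and the root hair expansin EXPA7. All were well above background on all 6 arrays. Between the lines the largest differences among them were those of NRT2.1 (-3.67) and HKT1 (2.02). EXPA7 was higher by 0.65 and PHT1;1 lower, with log2 differences of -0.61, while WER (0.11) and the potassium channel SKOR (0.14) were not called. The photosystem genes, markers of green tissue, were present in both lines and higher in ATHB25/REM7-ind as given above, and whether green cells were more numerous was not tested.

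Root hair genes were modestly raised, 11 of 21 called higher and 3 lower, with a median of 0.26. PRP1, a proline-rich wall protein of hairs, was at 1.87, 1.83 and 1.88 against 0.56, 0.68 and 0.59 (difference 1.25), and RSL4, the factor that sets hair growth, was higher by 0.75 while its relatives RSL1 and RSL2 were lower, with log2 differences of -0.52 and -0.61. Without ISH1 replicate 1 the list had 8 higher and 4 lower.

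Cell division genes were slightly lower, with 12 of 17 called lower and none higher, yet none by as much as 2-fold. The replication helicase subunit MCM5 was at 0.34, 0.19 and 0.33 against 0.91, 0.81 and 0.89 (difference -0.58), and the mitotic genes CYCB2;2, CYCB1;4 and CDKB2;1 were lower, with log2 differences of -0.54, -0.46 and -0.38. CYCB1;1 had -0.057 and was not called.

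Hormone genes gave mixed pictures. In the cytokinin list 10 of 21 were higher and 6 lower (median 0.48). With estradiol its mean level was -2.154 to -2.092 in ATHB25/REM7-ind and -2.38 to -2.171 in ISH1. Control roots with estradiol were above both, at -1.995 to -1.959, and ISH2 roots were at -2.367 to -2.285. Without estradiol ATHB25/REM7-ind was at -1.975 to -1.933, above its level with it. IPT3, which starts cytokinin synthesis, was at 0.095, 0.25 and 0.29 against -1.44, -1.47 and -1.61 (difference 1.71, adjusted p = 4.47e-13), IPT5 was higher by 1.12, and the response regulators ARR9, ARR5, ARR6 and ARR8, which report cytokinin signalling, by 1.16, 0.81, 0.79 and 0.73. The oxidases CKX2, CKX6 and CKX3, which break cytokinin down, were lower, with log2 differences of -2.71, -1.28 and -0.89, and CKX7 was higher by 0.66.

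The auxin list had a median of -0.002, with 7 of 19 higher and 6 lower, or 4 and 6 with a median of -0.21 under normexp. Without ISH1 replicate 1 the list median was 0.026. Over all genes tested the main fit called 28% higher and 30.3% lower. GH3.3, an auxin-induced conjugating enzyme, was at -0.96, -1.40 and -1.23 in ATHB25/REM7-ind and 1.18, 0.20 and -0.33 in ISH1 (difference -1.55), replicate 1 of ISH1 being the highest. YUC2 was higher by 1.05, but had a difference of -0.21 under normexp, and YUC9 lower, with a log2 difference of -1.01. Both make auxin from the product of TAA1, which was higher by 0.66. The influx carrier LAX1 was higher (0.81) and LAX3 lower (-0.60).

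Of the vascular list 4 of 21 were higher and 10 lower (median -0.20). NST1 had the largest difference (1.78), which turned to -0.58 under normexp. Its call was lost without ISH1 replicate 2 (adjusted p = 0.121) and without ATHB25/REM7-ind replicate 2 (0.0694) or 3 (0.0528). Also called higher were SUC2, the sucrose loader of phloem companion cells, at 2.55, 2.91 and 2.87 against 2.12, 1.72 and 1.48, and APL, a phloem identity factor, higher by 0.82. The vessel regulators VND7 and VND6 were lower, with log2 differences of -0.75 and -0.59, and the cellulose synthases CESA7 and CESA8, whose groups overlapped, by -0.21 and -0.20. The cambium gene WOX4 had 0.34 and was not called. Without ISH1 replicate 1 or 3, 6 genes of this list were lower, and without ATHB25/REM7-ind replicate 3 only 4 were, with a median of -0.099.

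Low oxygen genes were lower in 7 of 15 and higher in 2 (median -0.23), where 30.3% of all genes tested were lower and 28% higher. The list was also lower without estradiol, with 7 called lower, none higher and a median of -0.48. The pyruvate decarboxylase PDC1 was at -0.84, -0.82 and -1.11 against 0.38, 0.70 and 0.51 (difference -1.46), LBD41 was lower, with log2 differences of -1.06, and ADH1 had -0.085 and was not called. In the flavonoid list only 5 of 14 were called, and its median of 0.13 was -0.028 without ISH1 replicate 1. MYB11 and BAN, the latter of seed-coat tannin synthesis, were below background in all co-induced arrays and at least 3.66-fold and 2.51-fold lower, calls that were lost under normexp (adjusted p = 0.0913 and 0.162), while GSTF12, which carries anthocyanins to the vacuole, was higher by 1.45 and the flavanone hydroxylase F3H by 0.44.

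Several of the 10 largest differences toward ISH1 were in genes below background in all control and ISH2 arrays with estradiol, LCR33, PCR1 and scpl14 among them. LCR33, of the low-molecular-weight cysteine-rich family, was at -5.63, -6.37 and -7.38 in ATHB25/REM7-ind and 0.077, 0.15 and -0.12 in ISH1, a 90.3-fold difference (log2 -6.50, SE 0.75, adjusted p = 5.9e-07), with means of -10.56 and -9.19 in control and ISH2. PCR1, a cadmium resistance membrane protein, was at -4.70, -5.29 and -5.22 against 1.29, 0.93 and 0.85, and the carboxypeptidase-like gene scpl14 at -5.18, -6.11 and -6.51 against -0.46, -0.38 and -0.35. Their control means were -10.60 and -10.00. In all 3 genes the co-induced values also lay above those means.

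AT5G38910, AT5G39110, AT5G39120, AT1G15610, AT2G30670 and AT4G16215 completed the 10 largest, with differences of -5.38 to -6.00. AT5G38910 differed from the others in that ISH2 roots also held it, at a mean of 2.18. Well above background in all ISH1 arrays and in no co-induced array were 210 genes, led by AT4G19750 (at least 31.9-fold lower), PUM10 of the Pumilio RNA-binding family (at least 17.2-fold) and AT5G52690 (at least 16.5-fold). AT1G68040, AT1G04645 and LCR38 had bounds of 13.5, 12.5 and 12.5. AT1G68040 was the exception among them in control and ISH2 roots, where its means of -2.83 and -2.67 were above ISH1.

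The same 2 lines without estradiol, on other arrays and slides, differed far less. There 539 genes (1.94%) were higher in ATHB25/REM7-ind and 1008 (3.62%) lower, and these counts depended heavily on the fit, since a fit to those 6 arrays alone gave 5 and 5. Of the 1938 genes at least 2-fold higher with estradiol, 40 were also called higher without it and 165 were called lower. Of the 2704 at least 2-fold lower, 119 were also called lower and 13 higher.

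The difference between the lines was itself compared between treatments, on arrays that do not overlap. It was more positive with estradiol for 6532 genes (23.5%) and more negative for 6366 (22.9%). Among the genes called at least 2-fold with estradiol, that held in the matching direction for 1865 of the 1938 higher and 2216 of the 2704 lower. Those genes were chosen on the difference with estradiol, which is itself part of the change. Their matching direction was thus largely set by the choice and is no separate evidence. A constant effect of the array position of a line cancels in this comparison. CUC1, CUC3, STM, AGL15 and LBD29 passed it, with values of 2.60, 3.13, 2.60, 1.32 and -2.53.

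Several of the strongest co-induced genes were high in ISH1 without estradiol. GER3 was at -0.52, -1.85 and -2.49 in ISH1 without estradiol, against -7.07, -7.71 and -7.88 in ATHB25/REM7-ind, and was below background in all ISH1 arrays with it. TGG1 was at -1.59, -2.66 and -4.10 against -7.55, -7.82 and -9.14, and KCS19 at -3.98, -4.85 and -6.12 against -9.32, -10.77 and -10.81. In each gene ISH1 replicate 1 was the highest of the uninduced ISH1 arrays, and that array also had the largest share of probes well above background, 90.9% against 76.9% to 84.8% in the other 23. AT2G27385 had the same reversal (-3.36, -4.08 and -4.87 against -7.15, -8.57 and -7.82), as did LTP, AT5G63180, AT3G20395, YAB5 and BOP1, with differences without estradiol of -1.94, -3.73, -3.46, -3.92 and -1.23. AT4G16215 was lower in the co-induced line in both treatments, with differences of -5.38 with and -5.56 without estradiol.

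**Figure D5:**
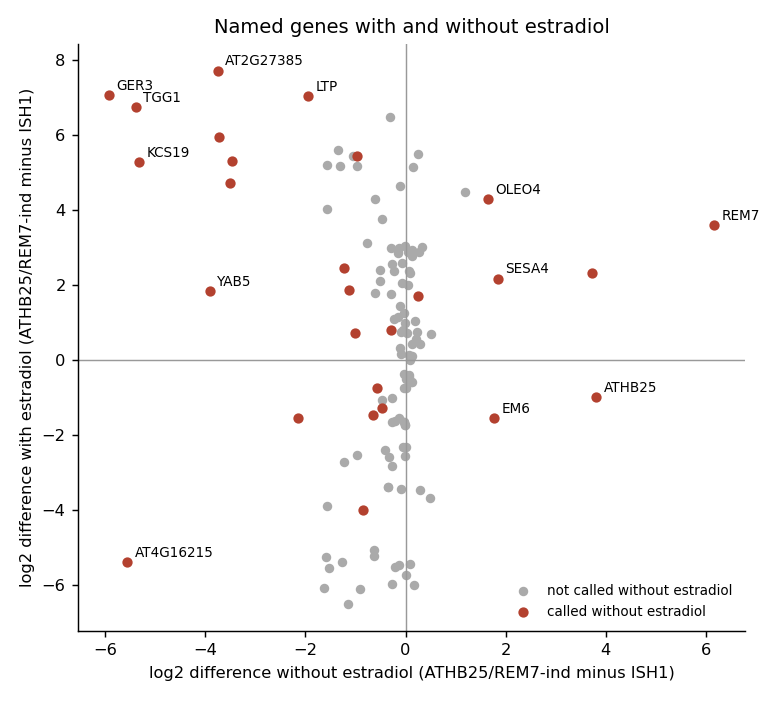
Log2 difference, ATHB25/REM7-ind minus ISH1, of the 127 named genes without estradiol (x axis) and with estradiol (y axis); red points were called without estradiol. Most genes lie near 0 on the x axis, while GER3, TGG1, KCS19 and AT2G27385 lie at the upper left, higher in the co-induced line with estradiol and lower without it.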

How the data were processed

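RNA from roots of 24 samples (3 replicates of each of 4 lines, with and without estradiol) was hybridised to one-colour Agilent arrays. The deposited scanner files hold background-corrected signal intensity from Feature Extraction, and the deposited value table holds log2 values, which per the labels and methods were shifted to the 75th percentile. They follow the same values centred per gene and served as an alternative.

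Here log2 of the processed signal minus each array's 75th percentile was used. Control spots and 346 outlier spots were left out. A probe was kept if some group had it well above background in each of its 3 arrays, and a gene was read from its brightest probe kept. Groups were compared in limma 3.58.1 (R 4.3.3), fitted to all 24 arrays in 8 groups, with Benjamini-Hochberg adjustment at 0.05. The methods name a 10-fold threshold and no test. The number of arrays limits the precision.

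Of 27814 genes tested, 22279 matched a RefSeq locus. Named genes were from 21 gene lists, the study's candidate genes and, in each direction, the 10 largest called differences among genes above background on all 6 arrays plus the 6 largest bounds. Of each list the 4 called members with the largest differences were named by rule, and the others were named after their values were seen. The members and lists were chosen with earlier results of these data known. From the lists, 10 of 380 entries were left out because the symbol also belongs to another locus. The descriptions of 2 control arrays go against their titles, which were followed. The test was run on simulated data with independent noise, no slide effect and 200 of 27659 genes changed, far fewer than were called here. It recovered 79 of 100 genes changed 2-fold and 93 of 100 changed 4-fold, and called 4 unchanged genes. Same-numbered replicates shared a slide, but their deviations from the group means correlated at only -0.047 to 0.055 over all genes tested. The main fit used no block for the slide, and a slide effect in single genes was not tested. Results for 2 list members are not reported here.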

Additional observations from a re-analysis of the deposited data

Results flagged for a closer look

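The difference between ATHB25/REM7-ind and ISH1 changed with estradiol, by the interaction term of the limma fit, in the positive direction for 6532 genes and in the negative direction for 6366.

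Among the named genes, 16 were called in opposite directions with and without estradiol and passed that term. The change of the difference, with minus without estradiol on the log2 scale, was positive for AT2G27385 (11.46), LTP (8.97), AT5G63180 (9.68), AT5G41761 (6.42), AT3G20395 (8.78), KCS19 (10.59), TGG1 (12.12), GER3 (12.99), AT1G33811 (8.22), LAX1 (1.1), AP1 (2.99), YAB5 (5.76), PCO2 (1.74) and BOP1 (3.67). It was negative for ATHB25 (-4.80) and EM6 (-3.31).

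The other candidate genes of the study that passed were REM7 (-2.57), CUC1 (2.60), CUC3 (3.13), STM (2.60), AGL15 (1.32), LBD18 (-0.70), LBD29 (-2.53), KRP3 (-0.47) and PLT1 (0.34). No cause of these changes was tested.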

How the results depend on the processing

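Normexp was run on the median signals with an offset of 50, so 3 steps changed at once. It gave a median over all genes of -0.167, 4969 genes higher, 1060 at least 2-fold higher, 34 higher and 61 lower without estradiol, 3583 more positive with estradiol, and 41 higher and 100 lower at 10-fold. ATHB25 became -0.97 (adjusted p = 0.107). The sign turned for CUC2 (-0.60), STM (-0.17), YUC2 (-0.21), YAB5 (-0.019), OLEO2 (-0.57) and NST1 (-0.58). The cause was not tested.

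A pseudocount of 16 gave 109 and 166 genes at 10-fold, and probes above background on all 6 arrays gave 189 lower. Requiring 2-fold left 1938 higher and 2704 lower, 62 and 210 without estradiol, 2219 and 2095 for the change with estradiol, and no call for ATHB25 (-0.99). Quantile normalization gave 656 lower without estradiol.

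With the slide as a replicate block PKL became called (adjusted p = 0.0435), and 8110 genes were higher and 8685 lower, 7705 and 8328 of them called in both fits. Without estradiol, the 6 arrays alone gave 5 and 5 calls, and 1 and 0 with the replicate block.

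With 1 array or slide left out, the counts without estradiol ranged from 106 to 592 higher and from 248 to 1603 lower, the latter without ISH1 replicate 2. ATHB25 ranged from -1.04 to -0.90. The sign of genes that were not called turned for CUC2 (-0.006 without ISH1 replicate 3, range -0.092 to 0.226) and FIE (-0.003 without ISH1 replicate 3, -0.005 without ATHB25/REM7-ind replicate 3, range -0.023 to 0.041). Of the 125 genes named by rule or as candidates of the study, other than ATHB25 and REM7, 77 had the same call in every alternative. The alternatives included the 2-fold threshold, at which 24 of the 125 lost the call. Further list members named in the text are not in these counts. Leaving out the 2 control arrays, an alternative chosen after seeing the data, gave 7626 and 8281 calls.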
